A study of Sus scrofa with 15 samples.

Results

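The genes described here make cholesterol and fatty acids in IPEC-J2 cells, an untransformed line of jejunal epithelium from a neonatal piglet. The members were chosen by function, but with earlier results of these data known, so their shares beside those of all genes are descriptions and not tests. They were listed as 32 pig gene symbols matched through their NCBI Gene numbers to rows of the expression tables. A row in both tables was found for 31 of them, out of 16804 genes that the tables have in common, and IDI1 was not matched. They comprise 17 enzymes of a sterol arm, 6 regulators and 8 enzymes of a fatty acid arm.

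RNA sequencing gave 15 libraries in 5 groups of 3, all from cells with a lentiviral vector. Lv3NC is the control vector for knockdown, Lv133KD is the vector against miR-133, and Lv143KD is the second knockdown vector. The label of Lv143KD names miR-143 while the design text gives miR-133 as its target, and the label is followed here. Lv20NC is the control vector for overexpression, and OV143 is the vector that overexpresses miR-143. The sources used here do not give promoter, clonality, dose or time after transduction, and every library comes from this 1 cell line. No miRNA has a row in the tables, so the action of the vectors on miR-133 or miR-143 was not checked. Whether libraries with the same vector stem from cultures grown apart is not labelled, so p-values reflect only the scatter among these samples, and that scatter may be technical.

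Cholesterol synthesis condenses acetyl-CoA into mevalonate, turns mevalonate into isoprenoid units and squalene, closes the sterol rings and then trims and rearranges them. Fatty acid synthesis draws on the same acetyl-CoA and is followed by elongation and desaturation. Transcription factors of the SREBP family, encoded by SREBF1 and SREBF2, stay in the endoplasmic reticulum with SCAP and the INSIG proteins while sterols are plentiful, and turn on genes of both arms when sterols run short. Intestinal epithelium absorbs cholesterol from food and also makes its own.

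Levels are FPKM, fragments scaled to the length of the gene and the size of the library, which allows genes of different length to be compared. FPKM keeps no read total, so depth is unknown and precision rests on the spread over 3 libraries. Between 11250 and 11557 genes reached 1 FPKM in a library. The FPKM values of a library summed to between 486086 and 558042, with the exception of OV143 replicate 2 at 662022. Epithelial keratin KRT8 averaged 741 ± 129 FPKM (SD, n = 9) in the knockdown table and 754 ± 144 (SD, n = 6) in the overexpression table. Defining markers of the enterocyte were low: the intestinal transcription factor CDX2 reached at most 0.06 and 0.07 FPKM in the 2 tables, and the brush border protein VIL1 averaged 1.80 ± 0.491 (SD, n = 9) and 3.68 ± 0.331 (SD, n = 6). The 3 adipocyte markers together stayed at or under 0.20 FPKM in every library, and the 6 epithelial markers summed to between 1681 and 3396. The endothelial marker CDH5 was measurable at 9.27 ± 0.751 FPKM (SD, n = 9) in the knockdown table. Marker lists of leukocytes, fibroblasts, muscle and hepatocytes each summed to at most 6.04 FPKM in a library and that of endothelium to at most 13.6, and their part in the results was not tested.

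Lv3NC replicate 3 and Lv143KD replicate 3 also stood apart, as the lowest 2 of the 9 knockdown libraries for 27.8% of all genes tested and the highest 2 for 18.1%.

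All 31 members reached 1 FPKM in 3 or more libraries of each table and so were tested in both. In the sterol arm the mean over the 9 knockdown libraries ran from 6.35 FPKM for TM7SF2, a sterol reductase, to 58.9 FPKM for FDPS, which makes farnesyl diphosphate. In the fatty acid arm it ran from 5.25 FPKM for ACSS2, a cytosolic acetyl-CoA synthetase, to 57.4 FPKM for FADS1, a fatty acid desaturase. Among the regulators STARD4, a sterol carrier, was lowest at 3.53 FPKM and SREBF2 was highest at 27.9 FPKM. In the overexpression table CYP51, the lanosterol demethylase, led the sterol arm at 57.0 FPKM and FADS1 led the fatty acid arm at 79.1 FPKM. That table was normalised apart from the other, so no test was made between them.

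In the comparison of the miR-133 knockdown with its control, most sterol enzymes were higher with Lv133KD, and 1 of them passed the test in the fit with replicate numbers as blocks. Of the 17 sterol members, 14 had a fitted log2 fold change above 0 and 3 below, with a median of 0.32, against a median of 0.0083 over all 11645 genes tested, of which 52.3% were above 0. The fatty acid arm had 6 members above 0 and 2 below, with a median of 0.17. The regulators were split 3 to 3, with a median of 0.02 that lay below 0 once libraries were set to equal medians or quantile normalised. Fold changes are on the log2(FPKM + 1) scale, which understates those of low genes, and in bulk RNA a change in the make-up of the culture and a change in RNA per cell cannot be told apart.

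No member was called in this comparison by limma at an adjusted p under 0.05, against 0.0172% of all genes, and the smallest adjusted p among members was 0.290. At an unadjusted p under 0.05, 2 members passed against 3.26% of all genes. With the replicate number as a block, HSD17B7 was called, against 0.258% of all genes, and 12 of 31 members (38.7%) had an unadjusted p under 0.05 against 16.5% of all genes. All 12 were higher with Lv133KD: 8 sterol members, 2 regulators and 2 fatty acid members.

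HSD17B7 encodes a dehydrogenase that acts as the 3-ketosteroid reductase of late cholesterol synthesis, and lies on chromosome 4 at 87720747 to 87743037 (Sscrofa11.1). Its level was 14.5, 17.8 and 15.5 FPKM in Lv3NC, 22.8, 23.5 and 25.9 in Lv133KD and 20.9, 23.5 and 20.0 in Lv143KD. Every library of both knockdown vectors lay above every control library. The log2 fold change of Lv133KD was 0.57 (SE 0.11, n = 3 per group, limma adjusted p = 0.290), and with the block the SE was 0.09 and the adjusted p 0.0446. With the block and the libraries numbered 1, 2 or 3 left out, the limma adjusted p was 0.495, 0.114 and 0.0505, so the call was lost each time, while the fold change stayed between 0.50 and 0.66. The fold change of Lv143KD was 0.41 (SE 0.11, limma adjusted p = 1.00, and 0.207 with the block). Both are measured against the same 3 control libraries, so they are not independent of each other. In the overexpression table the gene stood at 20.4, 21.6 and 22.1 FPKM in Lv20NC and 21.5, 23.7 and 24.4 in OV143, groups that overlapped. The vector accounted for 85.9% of the variance of HSD17B7 over the knockdown table, with a median of 25.7% for the sterol arm and 13.1% for all genes. HSD17B7 was set out for its call, so this share restates the same values.

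**Figure D1:**
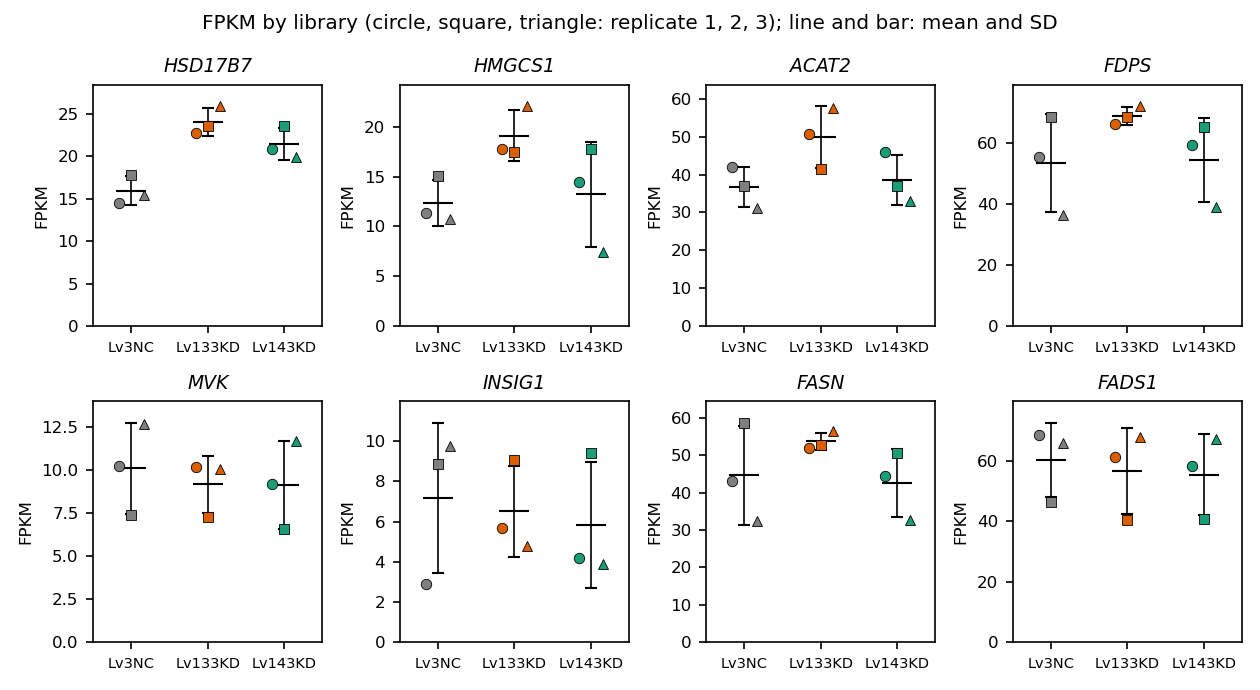
FPKM (vertical axis, from 0) of 8 members in the 9 knockdown libraries, by vector; symbols mark the replicate number and bars the mean and SD of 3 libraries. The libraries of HSD17B7 in both knockdown groups lie above all 3 of Lv3NC, while FDPS and FASN have their lowest values in replicate 3 of Lv3NC and of Lv143KD, and FADS1 has its lowest values in the libraries numbered 2.

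Enzymes of the first steps of the pathway were next in order of p. HMGCS1, the HMG-CoA synthase, stood at 11.3, 15.1 and 10.7 FPKM in Lv3NC and at 17.8, 17.5 and 22.1 in Lv133KD, without overlap. Its log2 fold change was 0.60 (SE 0.27, limma adjusted p = 0.926), and in Lv143KD its level ranged from 7.45 to 17.8, across the control range. ACAT2, the cytosolic thiolase that joins acetyl-CoA units, measured 42.0, 36.9 and 31.2 FPKM in Lv3NC, 50.6, 41.3 and 57.6 in Lv133KD and 45.8, 37.0 and 33.0 in Lv143KD. Replicate 2 of Lv133KD lay just under replicate 1 of Lv3NC, so those groups overlapped. The log2 fold change of ACAT2 was 0.43 (SE 0.17, limma adjusted p = 0.926).

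SQLE, the epoxidase that commits squalene to sterols, stood at 26.8, 30.9 and 25.1 FPKM in Lv3NC and at 32.9, 33.8 and 39.4 in Lv133KD. MSMO1, a sterol demethylase component, stood at 26.8, 29.7 and 24.8 in Lv3NC and at 34.1, 31.9 and 35.0 in Lv133KD. In both genes the groups did not overlap, with log2 fold changes of 0.35 (SE 0.18) and 0.30 (SE 0.20) that did not pass the test. With HSD17B7 and HMGCS1 they were the 4 members that lay without overlap above the control, against 4.69% of all genes. Same-numbered libraries gave 9 of 17 sterol members, 2 of 6 regulators and 4 of 8 fatty acid members higher in each of the 3 pairs, against 16.2% of all genes. Only MVK of the sterol arm, SCD of the fatty acid arm and INSIG2 of the regulators were lower in each pair, against 16.8% of all genes.

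The difference was not even over the pairs. The median sterol member was 0.26 higher on the log2 scale in Lv133KD than in Lv3NC between libraries numbered 1, 0.0010 higher between those numbered 2 and 0.63 higher between those numbered 3. In pairs 1 and 3, 15 of 17 sterol members were higher in Lv133KD, and in pair 2, 9 of 17. Over all genes tested the median differences were 0.0045, -0.03 and 0.07. Without Lv3NC replicate 3 the median of the sterol arm was 0.16 in place of 0.32, with 16 of 17 members above 0, that of the fatty acid arm was 0.08 in place of 0.17, and HSD17B7 stood at 0.55 (limma adjusted p = 0.876).

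**Figure D2:**
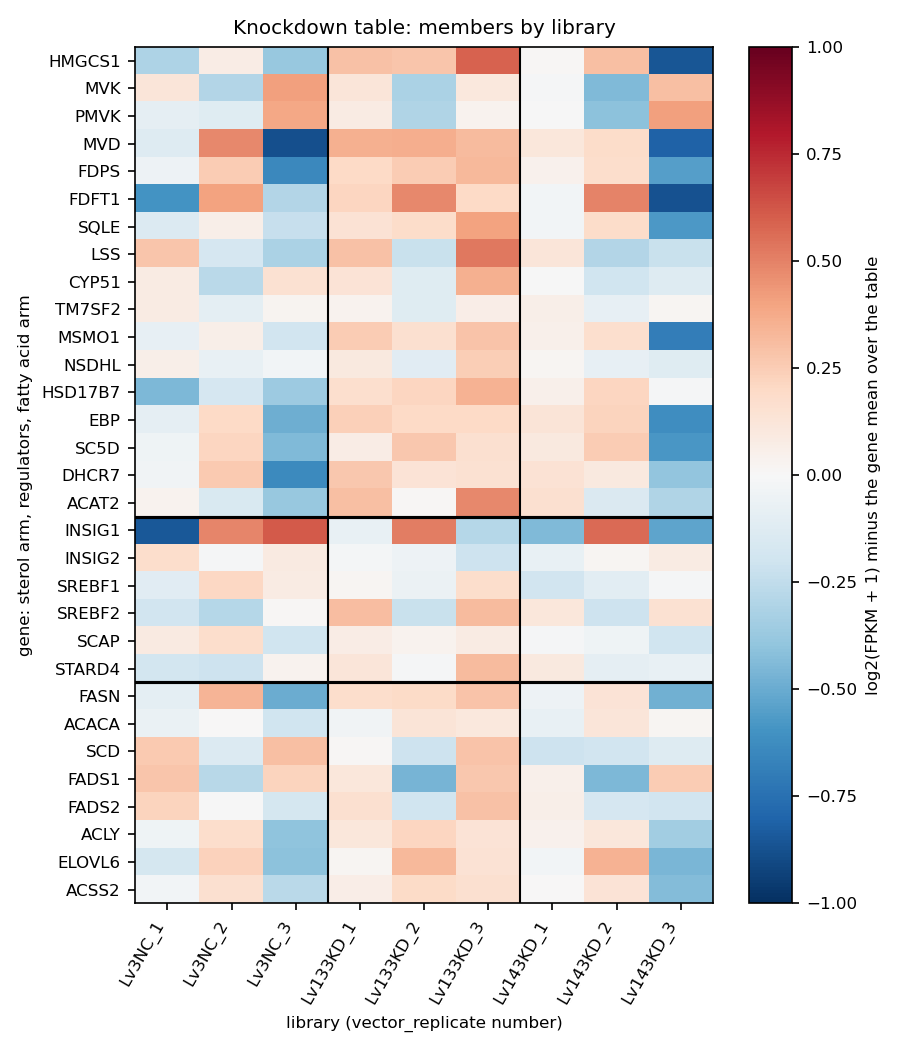
Deviation of log2(FPKM + 1) from the mean of each gene over the 9 knockdown libraries (colour scale), for the 31 members (rows, in the 3 groups divided by lines) by library (columns). All 17 sterol members lie above their mean in replicates 1 and 3 of Lv133KD, against 4 of 17 in Lv3NC replicate 3 and 3 of 17 in Lv143KD replicate 3.

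Many members were lowest in the same 2 libraries. Lv3NC replicate 3 and Lv143KD replicate 3 were the lowest 2 of the 9 libraries for 9 of 17 sterol members (52.9%) and 4 of 8 fatty acid members (50%), against the 27.8% of all genes. The sterol members were HMGCS1, MVD, FDPS, SQLE, MSMO1, EBP, SC5D, DHCR7 and ACAT2, and the fatty acid members were FASN, ACLY, ELOVL6 and ACSS2. SCAP was the 1 regulator that shared the pattern. The median sterol member lay 0.31 below its mean on the log2 scale in Lv3NC replicate 3 and 0.40 below it in Lv143KD replicate 3, against 0.04 and 0.02 below for the median of all genes.

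FDPS shows the pattern on the most abundant sterol member. Its level was 55.4, 68.5 and 36.3 FPKM in Lv3NC, 66.2, 68.6 and 72.0 in Lv133KD and 59.4, 65.1 and 39.0 in Lv143KD. MVD, which decarboxylates mevalonate diphosphate, varied most in proportion within the arm, with 6.11, 9.80 and 3.21 FPKM in Lv3NC, 8.94, 8.96 and 8.67 in Lv133KD and 7.40, 7.83 and 3.44 in Lv143KD. The replicate 3 libraries of Lv3NC and Lv143KD were low in both genes, and that of Lv133KD was not. EBP, a sterol isomerase, was even among the Lv133KD libraries at 46.9, 45.7 and 45.7 FPKM, and lay between 28.0 and 45.8 in Lv3NC and between 25.5 and 46.5 in Lv143KD. SC5D, the lathosterol desaturase, ranged from 11.9 to 22.3 FPKM over the 9 libraries and DHCR7, the last reductase of the route, from 5.12 to 10.5. In these 5 enzymes the log2 fold changes of Lv133KD lay between 0.26 and 0.52, with limma adjusted p of 0.926 in each.

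Lv133KD replicate 3 was the highest of the 9 libraries for 9 of 17 sterol members, against 7.33% of all genes. LSS, the lanosterol synthase, reached 19.1 FPKM there, against 10.3 to 16.1 in the other 8 libraries. CYP51 reached 70.5 FPKM, with 45.4 to 61.1 in Lv3NC and 47.7 to 54.8 in Lv143KD. NSDHL, a sterol dehydrogenase that acts with MSMO1, reached 24.4 FPKM, with 18.7 to 22.0 in the other 8. None of the 3 separated the groups.

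Some other sterol members had another order by replicate number, in shares near those of all genes. MVK, the mevalonate kinase, was lowest in the 3 libraries numbered 2, with 10.2, 7.41 and 12.7 FPKM in Lv3NC, 10.2, 7.27 and 10.1 in Lv133KD and 9.22, 6.57 and 11.7 in Lv143KD. PMVK, the kinase of the next step, was likewise lowest in the libraries numbered 2, over a range of 5.90 to 11.2 FPKM, and these 2 kinases were the sterol members for which Lv3NC replicate 3 and Lv143KD replicate 3 were highest. TM7SF2 was also lowest in the libraries numbered 2, over the narrow range of 5.75 to 6.78 FPKM. These 3 of 17 sterol members (17.6%) had that order, a share near the 19.1% of all genes. PMVK and FDPS lie 346679 bases apart on chromosome 4, and the 2 libraries in which FDPS was lowest were those in which PMVK was highest. FDFT1, the squalene synthase, was instead highest in the libraries numbered 2, at 29.9, 31.6 and 31.9 FPKM. The other 6 lay between 11.8 and 26.0. SC5D was also highest in the libraries numbered 2, which made 2 of 17 sterol members (11.8%) against 12.1% of all genes. ELOVL6 was the 1 of 8 fatty acid members with that order. The replicate number accounted for 89.4% of the variance of MVK and 92.9% of that of TM7SF2. The median was 48.9% for the sterol arm and 58.0% for all genes. MVK and TM7SF2 were set out here for their order by number, so their shares restate it.

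The median regulator differed between Lv133KD and Lv3NC by 0.22, -0.0040 and 0.19 on the log2 scale in pairs 1, 2 and 3, so that pair 2 lay near 0 as in the sterol arm, and a difference between regulators and enzymes was not tested. INSIG1, which holds SCAP in the endoplasmic reticulum and is itself turned on by SREBP, stood at 2.91, 8.86 and 9.77 FPKM in Lv3NC, 5.70, 9.04 and 4.78 in Lv133KD and 4.18, 9.42 and 3.88 in Lv143KD. Lv3NC replicate 3 was the highest of the 9 and only Lv3NC replicate 1 lay below Lv143KD replicate 3, so the 2 libraries that were low together in the sterol enzymes lay apart in INSIG1. Its log2 fold changes of -0.03 (SE 0.43) in Lv133KD and -0.22 (SE 0.43) in Lv143KD had the widest intervals of all members, at -0.99 to 0.93 and -1.18 to 0.74 (95%). INSIG2, its paralogue, stood at 8.29, 7.14 and 7.77 FPKM in Lv3NC, 7.12, 6.95 and 6.13 in Lv133KD and 6.80, 7.32 and 7.70 in Lv143KD. It was the 1 member lower in Lv133KD without overlap, against 3.33% of all genes, with a log2 fold change of -0.18 (SE 0.10, limma adjusted p = 0.926).

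SREBF2, the main activator of the sterol genes, stood at 24.1, 22.5 and 27.8 FPKM in Lv3NC, 34.4, 23.5 and 34.6 in Lv133KD and 29.9, 23.8 and 30.8 in Lv143KD. The libraries numbered 2 were the lowest, as for 19.1% of all genes. In each pair of the same number both knockdown vectors lay above the control. The log2 fold changes were 0.29 (SE 0.17) for Lv133KD and 0.18 (SE 0.17) for Lv143KD, with limma adjusted p of 0.926 and 1.00. SREBF1, the activator tied most to fatty acid genes, stood at 15.8, 20.0 and 18.2 FPKM in Lv3NC, 17.4, 16.5 and 19.5 in Lv133KD and 14.9, 15.96 and 17.0 in Lv143KD, with all 3 groups overlapping. STARD4 measured 2.97, 2.89 and 3.62 FPKM in Lv3NC, 3.89, 3.47 and 4.60 in Lv133KD and 3.81, 3.22 and 3.28 in Lv143KD, and the Lv133KD libraries overlapped the control by 1 value. SCAP, the escort of SREBP, stood at 15.8, 16.8 and 12.8 FPKM in Lv3NC, 15.6, 15.2 and 15.7 in Lv133KD and 14.7, 14.3 and 12.8 in Lv143KD. Its log2 fold change of 0.04 in Lv133KD turned to -0.07 without Lv3NC replicate 3.

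In the fatty acid arm no member separated Lv133KD from Lv3NC. FASN, the fatty acid synthase, stood at 43.0, 58.6 and 32.4 FPKM in Lv3NC, 52.0, 52.7 and 56.3 in Lv133KD and 44.5, 50.6 and 32.7 in Lv143KD. ACLY, which supplies acetyl-CoA from citrate, stood at 40.2, 47.1 and 31.1 FPKM in Lv3NC, 44.9, 48.3 and 45.7 in Lv133KD and 42.8, 45.1 and 32.4 in Lv143KD. As in the sterol arm, replicate 3 was the lowest library of Lv3NC and of Lv143KD in both genes. Their log2 fold changes of 0.30 (SE 0.21) and 0.24 (SE 0.16) became 0.09 and 0.09 without Lv3NC replicate 3. ELOVL6, an elongase, stood at 4.56, 6.37 and 3.72 FPKM in Lv3NC, 5.37, 6.86 and 5.92 in Lv133KD and 5.16, 6.97 and 3.57 in Lv143KD. ACSS2 stood at 5.08, 5.93 and 4.14 FPKM in Lv3NC, 5.49, 6.06 and 5.92 in Lv133KD and 5.20, 5.82 and 3.59 in Lv143KD. Both were lowest in Lv143KD replicate 3 and next lowest in Lv3NC replicate 3.

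ACACA, the acetyl-CoA carboxylase, varied little over the knockdown table, at 13.6, 14.4 and 12.4 FPKM in Lv3NC, 13.9, 15.8 and 15.5 in Lv133KD and 13.6, 15.6 and 14.5 in Lv143KD, with a log2 fold change of 0.15 (SE 0.10) in Lv133KD. SCD, the stearoyl-CoA desaturase, stood at 39.7, 29.8 and 40.8 FPKM in Lv3NC, 33.2, 28.4 and 40.4 in Lv133KD and 28.3, 28.6 and 30.1 in Lv143KD. It was lower than the same-numbered control in all 6 knockdown libraries, without separating the groups. FADS1 was lowest in the 3 libraries numbered 2, at 46.3, 40.5 and 40.8 FPKM against 58.2 to 68.5 in the other 6. It was the 1 of 8 fatty acid members (12.5%) with that order, against 19.1% of all genes. The number accounted for 93.3% of its variance, which restates that order. FADS2, the desaturase gene 68758 bases from FADS1 on chromosome 2, did not share that order: it stood at 64.8, 55.4 and 48.9 FPKM in Lv3NC, 62.2, 48.2 and 68.2 in Lv133KD and 57.8, 49.3 and 48.4 in Lv143KD.

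With Lv143KD against the same control, the members lay around 0. The sterol arm had 9 members above 0 and 8 below with a median of 0.0089, the regulators 2 and 4 with a median of -0.09, and the fatty acid arm 3 and 5 with a median of -0.05. The median over all genes was -0.014, and 44.2% lay above 0. No member was called by limma, against 0.0172% of all genes without the block and 0.172% with it, and the smallest adjusted p of a member with the block was 0.207, for HSD17B7. At an unadjusted p under 0.05, 1 member passed against 1.79% of all genes, and 2 passed with the block (6.45%) against 5.74%. HSD17B7 was also the 1 member without overlap of the groups, against 2.11% of all genes higher and 2.03% lower.

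Among the other members SCD had the smallest p in this comparison, with a log2 fold change of -0.32 (SE 0.15, limma adjusted p = 1.00, and 0.577 with the block). Higher in each pair were HSD17B7, ACAT2 and SREBF2, against 11.7% of all genes. Lower in each pair were MVK, NSDHL, SREBF1, SCD and FADS2, against 16.4%. For most enzymes the interval of the Lv143KD fold change was wide: that of HMGCS1 was 0.03 with a 95% interval of -0.58 to 0.63, and that of FASN -0.05 with -0.53 to 0.43. Without Lv143KD replicate 3 the median of the sterol arm was 0.18 and that of the fatty acid arm 0.11, and without Lv3NC replicate 3 they were -0.06 and -0.15.

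**Figure D3:**
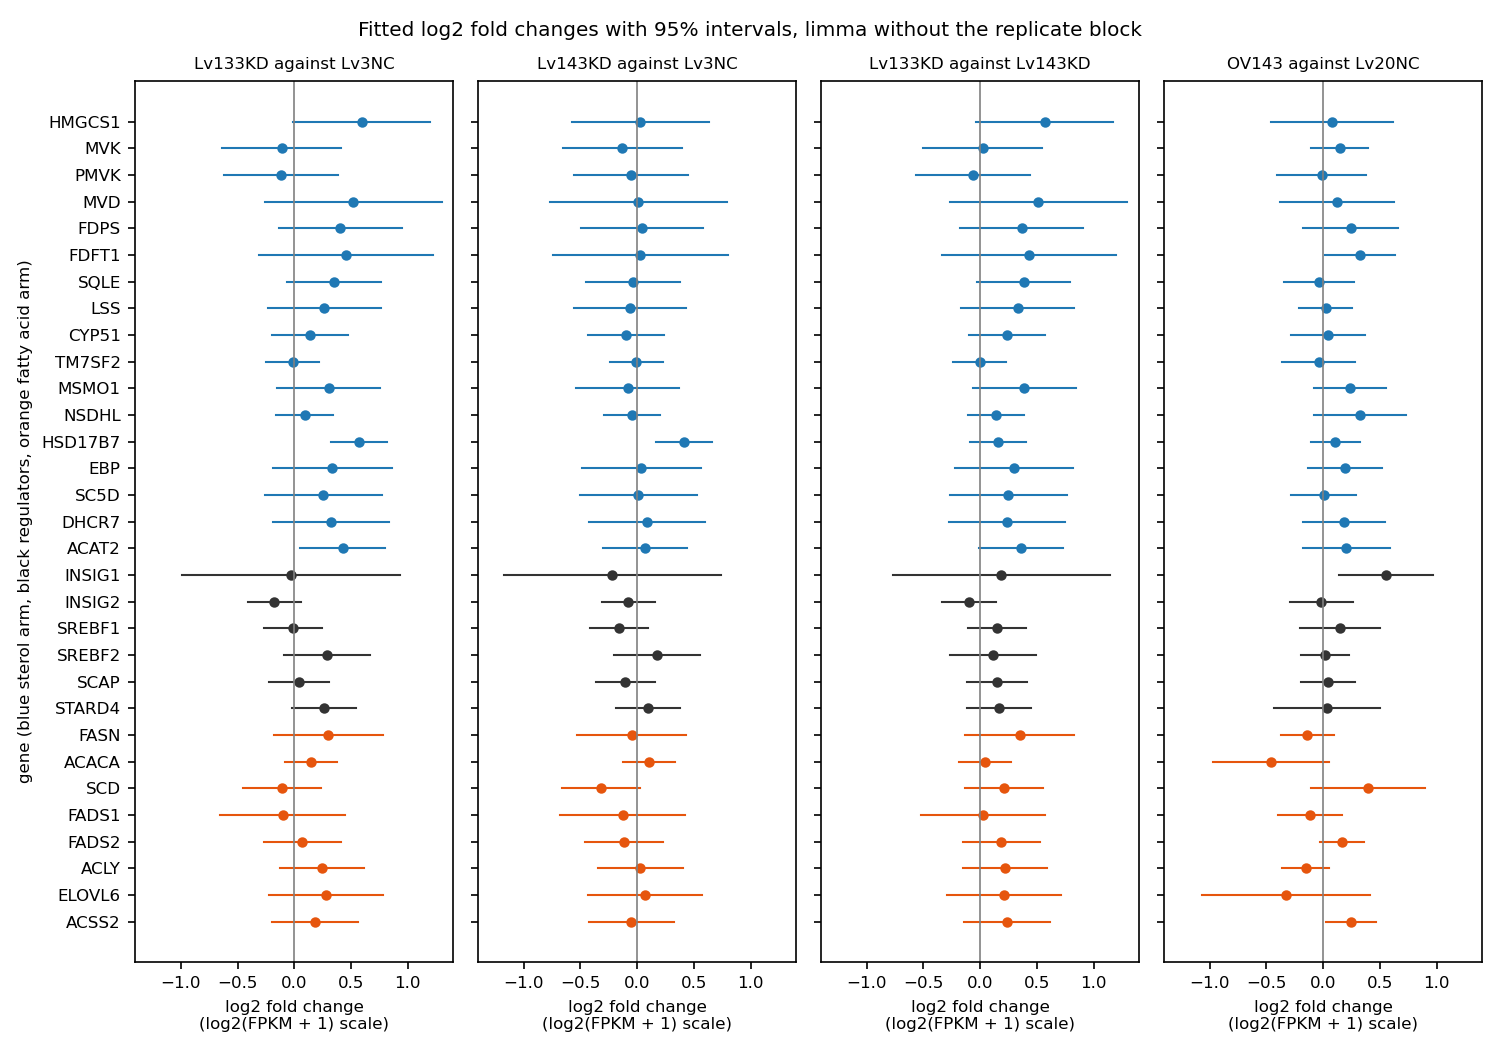
Log2 fold changes on the log2(FPKM + 1) scale with 95% intervals from limma without the block (horizontal axis), for the 31 members (rows; blue sterol arm, black regulators, orange fatty acid arm) in the 4 comparisons. Most sterol members lie right of 0 for Lv133KD against Lv3NC, with a median of 0.32, while those for Lv143KD against Lv3NC lie around 0.0089.

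Set directly against each other, the knockdown vectors differed in the sterol arm by a median of 0.30, with Lv133KD higher for 15 of 17 members. All 8 fatty acid members were higher in Lv133KD, with a median of 0.21, and 5 of 6 regulators, with a median of 0.15. The median over all genes was 0.022, and 58.2% lay above 0. No gene at all was called by limma (0% without the block and 0% with it). At an unadjusted p under 0.05 no member passed, against 0.129% of all genes, and with the block 8 members did (25.8%) against 1.79%. Those 8 were ACAT2, HMGCS1, MVD, FDPS, SQLE, CYP51, MSMO1 and FASN, each higher in Lv133KD, with a smallest adjusted p of 0.910.

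MVD, FDPS, SCAP and FASN lay higher in Lv133KD without overlap, against 2.11% of all genes, and no member lay lower, against 0.55%. In each same-numbered pair 6 sterol members, 3 regulators and 4 fatty acid members were higher, against 18.9% of all genes, and no member was lower, against 10.4%. HMGCS1 had the largest fold change, at 0.57 (SE 0.27, 95% interval -0.04 to 1.17). The median sterol difference between Lv133KD and Lv143KD was 0.14, 0.02 and 0.75 in pairs 1, 2 and 3. Without Lv143KD replicate 3 the median of the sterol arm was 0.14 and that of the fatty acid arm 0.11, and HMGCS1 stood at 0.23, SQLE at 0.16, MSMO1 at 0.12, FASN at 0.17 and ACLY at 0.07.

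The overexpression of miR-143 was compared with Lv20NC in the second table. The sterol arm had 14 of 17 members above 0 with a median of 0.12, the regulators 5 of 6 with a median of 0.04, and the fatty acid arm 3 of 8 with a median of -0.13. The median over all 11506 genes tested was -0.020, and 45.8% lay above 0. No member was called by limma without the block (0% of all genes) or with it (1.94% of all genes), with smallest adjusted p of 0.302 and 0.0779. At an unadjusted p under 0.05, 3 members passed against 11.3% of all genes, and with the block 8 members (25.8%) against 19.9%.

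INSIG1 had the largest fold change of all members here. It stood at 2.74, 2.39 and 3.97 FPKM in Lv20NC and at 4.13, 5.89 and 4.63 in OV143, without overlap, and its log2 fold change was 0.55 (SE 0.18, limma adjusted p = 0.302, and 0.0926 with the block). SREBF2 stood at 26.6, 24.4 and 25.0 FPKM in Lv20NC and 24.1, 26.5 and 26.4 in OV143, and SCAP at 16.7, 16.03 and 14.9 in Lv20NC and 15.3, 17.9 and 15.8 in OV143. SREBF1 stood at 11.7, 10.5 and 10.1 FPKM in Lv20NC and 9.87, 14.9 and 11.7 in OV143. All 3 overlapped between the groups. INSIG2 stood at 7.17, 7.01 and 7.17 FPKM in Lv20NC and 7.55, 5.93 and 7.74 in OV143, and STARD4 at 2.85, 2.23 and 3.51 in Lv20NC and 3.49, 1.97 and 3.50 in OV143. In both genes OV143 replicate 2 was the lowest library, and the groups overlapped.

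**Figure D4:**
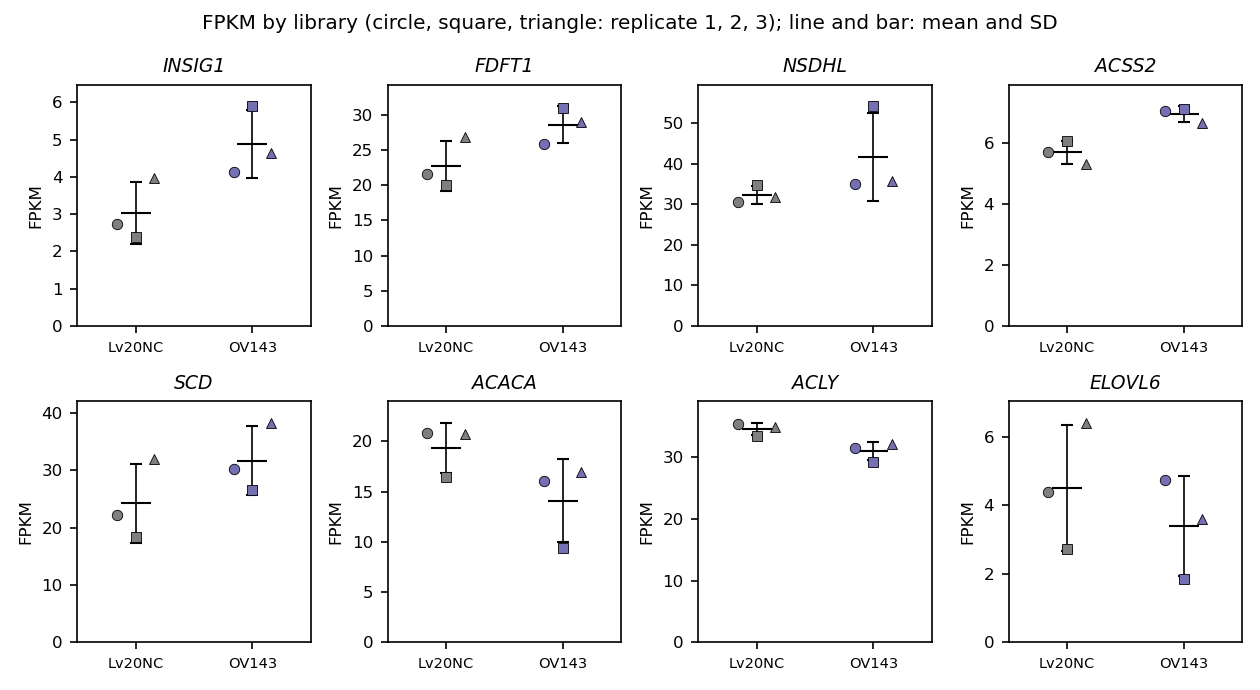
FPKM (vertical axis, from 0) of 8 members in the 6 overexpression libraries, by vector; symbols mark the replicate number and bars the mean and SD of 3 libraries. INSIG1, NSDHL and ACSS2 lie higher in OV143 without overlap and ACLY lower, and OV143 replicate 2 is the lowest library for ACACA and ELOVL6.

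FDFT1 stood at 21.5, 20.0 and 26.8 FPKM in Lv20NC and at 25.9, 31.0 and 29.0 in OV143, with a log2 fold change of 0.32 (SE 0.13, limma adjusted p = 0.425). It was higher in each pair, but OV143 replicate 1 lay below Lv20NC replicate 3. NSDHL stood at 30.5, 34.7 and 31.8 FPKM in Lv20NC and at 34.9, 54.2 and 35.7 in OV143, without overlap but by a narrow margin outside OV143 replicate 2. Its log2 fold change was 0.33 (SE 0.17), and 0.13 without that library. MSMO1 measured 26.3, 28.5 and 35.4 FPKM in Lv20NC and 31.6, 35.8 and 38.9 in OV143, with a fold change of 0.23 (SE 0.14). EBP measured 37.9, 37.0 and 36.9 FPKM in Lv20NC and 36.0, 52.4 and 41.3 in OV143, and its fold change of 0.19 (SE 0.14) was 0.05 without OV143 replicate 2.

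The fatty acid enzymes lay in unlike directions, and none passed the test. ACACA stood at 20.9, 16.4 and 20.7 FPKM in Lv20NC and at 16.1, 9.35 and 17.0 in OV143, and SCD at 22.3, 18.5 and 31.9 in Lv20NC and 30.3, 26.5 and 38.2 in OV143. ACACA was lower and SCD higher in each of the 3 pairs, while both genes overlapped between the groups. Their log2 fold changes were -0.46 (SE 0.22) and 0.39 (SE 0.21), with limma adjusted p of 0.483 and 0.534, and 0.0779 for each with the block. Without OV143 replicate 2 they were -0.21 and 0.51. FASN measured 31.6, 29.9 and 28.5 FPKM in Lv20NC and 25.4, 29.7 and 26.3 in OV143, lower in each pair by a log2 fold change of -0.14 (SE 0.10).

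ACSS2 stood at 5.72, 6.08 and 5.33 FPKM in Lv20NC and at 7.06, 7.14 and 6.66 in OV143. FADS2 stood at 68.6, 65.6 and 68.4 in Lv20NC and at 75.2, 77.0 and 76.1 in OV143. ACLY, the other source of cytosolic acetyl-CoA, stood at 35.3, 33.4 and 34.8 in Lv20NC and at 31.4, 29.2 and 32.1 in OV143. These 3 separated the groups with little spread inside each group: ACSS2 and FADS2 were higher and ACLY lower with OV143. Their log2 fold changes were 0.25 (SE 0.10), 0.17 (SE 0.08) and -0.16 (SE 0.09), with limma adjusted p of 0.397, 0.493 and 0.549. The vector accounted for 83.9%, 93.3% and 74.4% of their variance, with a median of 18.9% for all genes. The 3 were set out for their separation and small spread, so these shares restate it and add no support. With NSDHL and INSIG1 that made 4 members higher without overlap, against 8.96% of all genes, and 1 lower, against 12.9%. Over the pairs, 7 sterol members, 1 regulator and 3 fatty acid members were higher in each, against 20% of all genes, and 3 fatty acid members lower in each, against 26%.

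OV143 replicate 2, the library with the highest FPKM sum, was the highest or the lowest of the 6 for 23 of 31 members (74.2%), a share near the 75.9% of all genes tested. It was the highest of the 6 libraries for 11 of 17 sterol members, 3 of 6 regulators and 2 of 8 fatty acid members, against 38.4% of all genes tested. It was the lowest for 4 of 8 fatty acid members, namely ACACA, ELOVL6, FADS1 and ACLY, for INSIG2 and STARD4, and for SQLE of the sterol arm, against 37.5%, and it tied with Lv20NC replicate 2 as the lowest for HMGCS1. FDPS reached 69.4 FPKM there against 41.7 to 49.3 in the other 5 libraries, and MVD 8.18 against 4.20 to 5.88. ELOVL6 stood at 4.38, 2.72 and 6.40 FPKM in Lv20NC and at 4.73, 1.84 and 3.61 in OV143, so its lowest value was in OV143 replicate 2 and its highest in Lv20NC replicate 3. Without OV143 replicate 2 the median of the sterol arm was 0.05 and that of the fatty acid arm -0.02, and without Lv20NC replicate 2 the sterol median was 0.19. The part of this library in the differences was not tested beyond leaving it out.

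**Figure D5:**
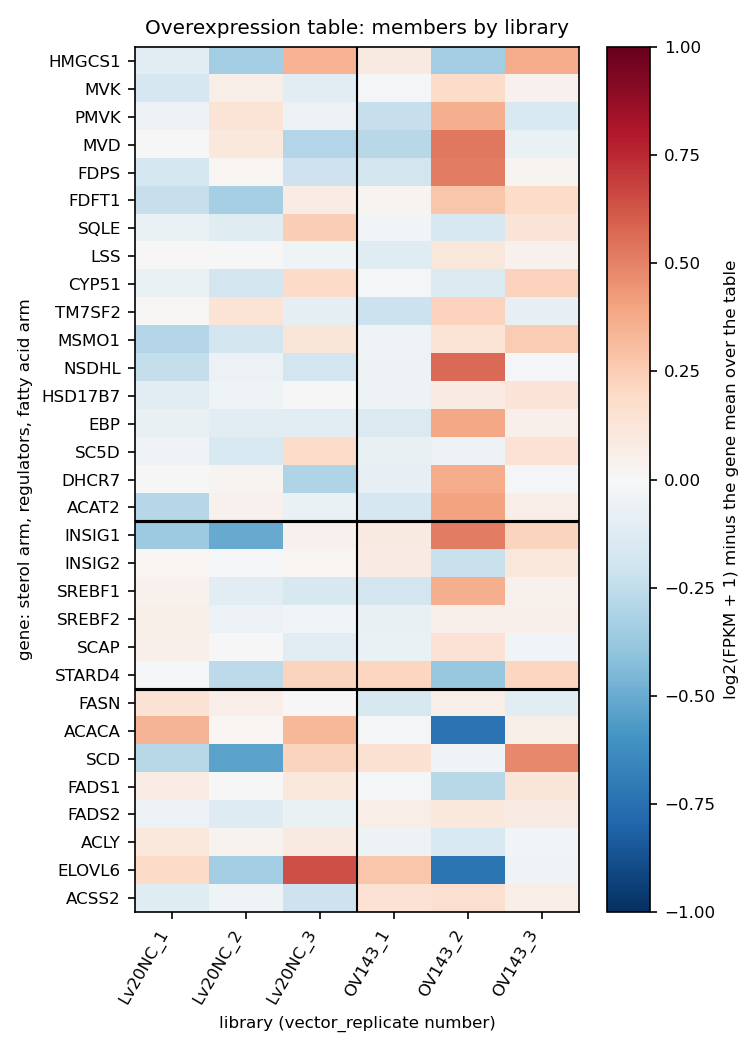
Deviation of log2(FPKM + 1) from the mean of each gene over the 6 overexpression libraries (colour scale), for the 31 members (rows, in the 3 groups divided by lines) by library (columns). In OV143 replicate 2, 13 of 17 sterol members lie above their mean, while ACACA and ELOVL6 are at their lowest.

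Some sterol members varied more with the replicate number than with the vector in this table. CYP51 stood at 54.0, 49.8 and 64.7 FPKM in Lv20NC and at 55.8, 51.1 and 66.8 in OV143, with 98.2% of its variance on the number. HMGCS1 stood at 24.4, 20.7 and 34.0 FPKM in Lv20NC and at 28.3, 20.7 and 34.7 in OV143, with 95.9%. SQLE and SC5D were likewise lowest in a library numbered 2 and highest in one numbered 3. The median share of the number was 59.9% for the sterol arm, 36.6% for the fatty acid arm and 53.1% for all genes. CYP51 and HMGCS1 were set out here as the largest shares of the sterol arm, so they do not stand for the arm.

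Genes next to the pathway, taken from lists of processing factors, transport, branches and lipid supply, were called in few cases. AACS, which activates acetoacetate for lipid synthesis, stood at 3.96 ± 0.870 FPKM (SD, n = 3) in Lv3NC, 9.67 ± 0.0889 in Lv133KD and 8.92 ± 1.29 in Lv143KD. Its log2 fold changes of 1.12 (SE 0.15) and 1.01 (SE 0.15) had limma adjusted p of 0.0840 and 0.177, and of 0.0128 and 0.0309 with the block. The fold changes were the same with and without the block, and the 2 comparisons share their controls. With the block AACS was in both the 1 gene called of 12 tested in the list of other sterol and SREBP-linked genes. In the overexpression table AACS stood at 9.25 ± 0.591 FPKM in Lv20NC and 9.46 ± 0.193 in OV143. ABCG1, a sterol exporter and target of the LXR receptors, stood at 2.22 ± 0.208 FPKM in Lv20NC and 1.04 ± 0.321 in OV143, with a log2 fold change of -0.67 (SE 0.14, limma adjusted p = 0.175, and 0.0313 with the block), as 1 of 6 tested genes of its list. Over all genes, 0.258%, 0.172% and 1.94% were called with the block in these comparisons. No gene of the lists of SREBP processing, isoprenoid branches, fatty acid supply or glycerolipid synthesis was called in any of the 4 comparisons, with 9, 9, 15 and 6 or 7 genes tested.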

How the data were processed

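RNA sequencing covered 15 libraries of 5 groups. The authors deposited FPKM per gene, per the file headers, in 1 table of 9 knockdown libraries and 1 of 6 overexpression libraries. The genome build is Sscrofa 11.1, per the submitters' processing notes. For aligner, counting tool and annotation, the names were not given in the sources used here. Genes carry NCBI Gene numbers, and symbols and positions came from a RefSeq table of the same build (18618 of 19000 and 16949 of 17001 genes found). No pair of libraries was identical. Groups follow the labels.

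Values were taken as log2(FPKM + 1), and a gene entered the test where 3 or more libraries of the table reached 1 FPKM (11645 and 11506 genes). Limma 3.58.1 (R 4.3.3) was fitted to each whole table with trended variance. Tests were two-sided, p-values were adjusted by Benjamini-Hochberg over the whole table, and the threshold for a call was 0.05. The fit was also run on simulated data with independent scatter in each library and no effect of the replicate number. That simulation cannot show how the fit or the block behaves where the number has an effect. The tables were normalised separately, so tests stay within a table.

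Deviations of same-numbered libraries from their group means correlated at 0.27 to 0.852 over 9 knockdown pairs and at 0.229 to 0.716 over 3 overexpression pairs. These were above 0.1 throughout, so numbers were taken to pair libraries, although what a number marks is not labelled. Libraries of different number correlated at -0.87 to 0.379 over 18 knockdown pairs and at -0.676 to 0.54 over 6 overexpression pairs, so the ranges overlap. OV143 replicate 1 correlated at 0.54 with Lv20NC replicate 3 and at 0.229 with Lv20NC replicate 1. Lv3NC replicate 1 correlated at 0.379 with Lv133KD replicate 3 and at 0.27 with Lv133KD replicate 1. The pairing by number is thus uncertain. The number as a block is given where it changes a call or a count. Variance shares come from the 2-way layout of vector and number.

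The members and gene lists were chosen with earlier results of these data known. Values by library are given for members called with or without the block, the 4 of each arm with the smallest p in a comparison, the 6 regulators and the most abundant member of each arm. For some groups of these, such as CYP51, NSDHL and FADS1 in the knockdown libraries, only ranges or part of the values are given. SQLE and MSMO1 are not given by library in Lv143KD. Values of other members, such as MVD, PMVK and LSS, and of members outside the comparison that named them were added after they were seen. Alternatives were another pseudocount (0.1 FPKM), no filter, a filter at 5 FPKM, equal library medians, quantile normalisation, no variance trend, library weights and leaving out libraries.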

Additional observations from a re-analysis of the deposited data

How the results depend on the processing

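Of 848 alternative values for 48 results of named members, 814 kept the direction and the side of the threshold, 19 reversed, 15 newly passed it and 0 lost a call, since no member was called without the block. With the replicate block 30 genes were called for Lv133KD against Lv3NC, 20 for Lv143KD against Lv3NC and 223 for OV143 against Lv20NC, in place of 2, 2 and 0, and HSD17B7 was the 1 member among them. The block changed no other call of a member. Genes called for Lv133KD against Lv3NC were 1 with no filter, 0 with equal library medians or no variance trend and 205 with library weights. For Lv143KD against Lv3NC they were 1 with no filter or equal medians, 0 with no trend and 70 with weights. For OV143 they were 2 with equal medians, 6 with quantile normalisation and 2650 with weights. The estimation of weights stopped before convergence in 1 fit. With weights the median of the regulators was 0.24 for Lv133KD and 0.069 for Lv143KD, HSD17B7 passed at 0.65 and 0.48, and SCAP reversed to -0.0089 for Lv133KD. For OV143 the weights reversed SREBF1 (-0.077), SCAP (-0.067) and SREBF2 (-0.055), and FDFT1, MSMO1, INSIG1, ACSS2, ACACA and SCD passed. The cause was not tested.

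Leaving out 1 library at a time gave 0 to 0 genes called for each knockdown vector against Lv3NC and 0 to 511 for OV143, the highest without OV143 replicate 2. For Lv133KD the sterol median ran from 0.16 to 0.43, that of the regulators from -0.011 to 0.14, and SCAP from -0.068 to 0.12. For Lv143KD the median of the regulators ran from -0.10 to -0.014, that of the fatty acid arm from -0.15 to 0.11, MVK from -0.32 to 0.064 and FADS1 from -0.31 to 0.072. For Lv133KD against Lv143KD the median of the regulators ran from 0.081 to 0.18. For OV143 SCAP ran from -0.024 to 0.082 and SREBF2 from -0.0070 to 0.059.

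With the block and the libraries of number 1, 2 or 3 left out, 0, 14 and 72 genes were called for Lv133KD and 683, 1454 and 278 for OV143. For Lv143KD 1 gene was called without number 1 and 60 without number 3. The sterol median for Lv133KD was 0.46 without number 2 and 0.13 without number 3, where SCAP reversed to -0.078 and the regulators' median for Lv143KD was 0.040. For Lv133KD against Lv143KD the sterol, regulator and fatty acid medians without number 3 were 0.094, 0.086 and 0.047. For OV143 the regulators' median was 0.10 without number 1, SREBF1 (-0.014), SCAP (-0.017) and SREBF2 (-0.030) reversed without number 2, and SREBF2 (-0.012) without number 3. In these fits INSIG1 passed without number 1 (0.60), 2 (0.32) and 3 (0.74), ACACA without number 1 (-0.51) and 2 (-0.32), and SCD without number 2 (0.34). These OV143 fits leave very few libraries from which to estimate the spread. Their smallest limma adjusted p over all genes was 3.8e-28, 1.3e-71 and 5.1e-17, against 0.0021 with the block and all libraries, so passing there carries little weight. With the block and all libraries INSIG1, ACACA and SCD were not called, at limma adjusted p of 0.0926, 0.0779 and 0.0779. HSD17B7 for Lv133KD passed in none of the fits with a number left out.

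Without Lv3NC replicate 3 and Lv143KD replicate 3 together, an alternative chosen after seeing the data, 0 genes were called against Lv3NC for either vector, the sterol median for Lv133KD was 0.16, SCAP reversed to -0.068, and the regulators' median for Lv143KD was 0.040. Depth is unknown, so counting error in low members such as STARD4 and INSIG1 could not be set apart.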
